A study of Mus musculus with 374 samples.

Results

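The granulocytes of this dataset are the 96 cells labelled Grans, deposited 1 per well in plate rows G, H, I and J, and they make up 96 of the 374 labelled cells. They were chosen by that label alone, with no measured value. The dataset holds 5 populations sorted from 1 female C57BL/6 mouse, 10-13 weeks old, and measured on 1 plate by CEL-seq2, a protocol that counts transcripts at their 3' end with unique molecular identifiers (UMIs). Granulocytes (Mac1+ Gr1+), 44 B lymphocytes (B220+, low FSC-A), 96 erythroblasts (Ter119+ CD44+, with middle to high FSC-A) and 95 progenitor/stem cells (Lin- Kit+ Sca1+) came from bone marrow, and 43 T lymphocytes (CD3+, low FSC-A) came from the thymus of that mouse. Antibody fluorescence and light scatter were recorded for each sorted cell (index data). No treatment or genetic change was given. Since all cells share 1 animal and 1 plate, each population is 1 sample, no p-value was computed, and every interval below is a 95% interval that covers counting error only.

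Granulocytes of the marrow are mostly neutrophils, which mature from promyelocytes through myelocytes to segmented cells and fill their granules in a fixed order. Primary granules with myeloperoxidase and elastase are made first, specific granules with lactoferrin, lipocalin and cathelicidin next, and gelatinase granules last. Mature neutrophils carry the chemokine receptor Cxcr2, crawl by means of actin, and kill microbes with the NADPH oxidase and with the calprotectin subunits S100a8 and S100a9. The gate antibodies bind Mac-1, whose alpha chain is encoded by Itgam, and Gr1, which recognises Ly6g on neutrophils and Ly6c on monocytes and other cells.

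The sequences before the start of 3 genes that the comparisons turn on are printed here because Ngp and Ltf mark the specific granule programme and S100a8 encodes one of the most heavily counted transcripts of the sort. They run from 250 bases before the RefSeq start (GRCm38.p6) to the last base outside the gene as GENCODE M21 places it, 5' to 3' on the strand of the gene. The window of Camp, another specific granule gene, held neither motif searched and is not printed. Capitals mark TTGCNNAA, a C/EBP-type motif, in Ngp and Ltf, and GAGGAAGT, a PU.1-type motif, in S100a8, read on either strand.
Ngp, chr9:110419558-110419746, forward strand: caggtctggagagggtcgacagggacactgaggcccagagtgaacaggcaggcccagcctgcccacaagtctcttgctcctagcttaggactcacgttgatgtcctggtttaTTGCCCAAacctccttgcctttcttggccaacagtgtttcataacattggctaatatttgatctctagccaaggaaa
Ltf, chr9:111019042-111019270, forward strand: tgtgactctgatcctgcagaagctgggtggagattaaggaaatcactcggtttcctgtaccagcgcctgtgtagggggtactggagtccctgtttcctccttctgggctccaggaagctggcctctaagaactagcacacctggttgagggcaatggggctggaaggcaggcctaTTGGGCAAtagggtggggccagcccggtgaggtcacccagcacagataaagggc
S100a8, chr3:90668821-90668977, forward strand: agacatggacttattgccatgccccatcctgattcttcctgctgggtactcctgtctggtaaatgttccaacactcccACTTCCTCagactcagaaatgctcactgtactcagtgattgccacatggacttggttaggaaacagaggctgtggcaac
Of the 20 genes with the highest ratio of granulocytes over the other populations, 17 had windows of 300 bases in the RefSeq table. Some had more than 1, and together they had 20 windows. TTGCNNAA was in 6 of these 20 windows (Adam8, Ltf, Lyz1, Ngp, Pilra and Slpi) and in 10.8% of all 32851 windows. GAGGAAGT was in 4 of the 20 windows (Itgb2l, Lilra6, Pirb and S100a8) and in 3.20% of all windows. The motifs were searched as letters on both strands and do not overlap each other. A match describes the letters of a window and is not a measured binding site.

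The granulocyte wells held 403506 UMIs on mouse genes, with a median of 3880 per well (range 8 to 22425). Wells G5 (8 UMIs) and G3 (69 UMIs) were the 2 below 1000 UMIs, and the other 94 were used wherever wells were compared at equal depth. The other populations held 135808 (B lymphocytes) to 834812 (progenitor/stem cells) UMIs, and the latter together with the erythroblasts supplied most of their sum. Thinned to 1000 UMIs, a granulocyte well showed a median of 480.5 genes (range 376 to 747), against 470 in erythroblasts, 598 in B lymphocytes, 667 in T lymphocytes and 707 in progenitor/stem cells. By correlation with the population sums, 94 of the 96 granulocyte wells, among them 11 of the 13 monocyte-like wells described below, were nearest to their own population. Wells I17 and J12 were nearest to the progenitor/stem cells, and B lymphocyte wells A8 and B6 and erythroblast well C5, of which B6 and C5 held under 1000 UMIs, were nearest to the granulocytes.

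The label was first checked against 6 granulocyte markers, S100a8, S100a9, Ngp, Camp, Mmp8 and Retnlg. These markers were chosen with earlier results of these data known, so the check is not independent of the data. Together they took 13.6% (13.5% to 13.7%) of the UMIs of the granulocytes, 0.600% of those of the B lymphocytes, 0.290% in T lymphocytes, 0.182% in progenitor/stem cells and 0.139% in erythroblasts. Of the 815 marker UMIs of the B lymphocytes, 490 were in well A8, where they made up 10.8% of UMIs. This well had a Gr1 fluorescence of 15209 and a Mac-1 fluorescence of 1268, within the range of the granulocytes, and without it the B lymphocyte share was 0.248%. The label did not hold for every well. Clustering of the 94 deeper wells on their 200 most variable genes gave 3 clusters (mean silhouette 0.427, against 0.425 for 2 clusters). The same 13 wells formed a cluster of their own at every number of clusters from 2 to 6. These numbers of clusters are cuts of 1 tree, so past 2 clusters this says only that the 13 wells were not divided. The leading genes of these 13 wells included Ccr2, F13a1, Ms4a6c and Irf8, all on the monocyte marker list, next to Fn1, Ahnak, Ifi30, Crip1, Pld4 and Mpo, and the cluster is called monocyte-like here.

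In 12 of the 13 monocyte-like wells the granulocyte marker share lay between 0.0846% and 0.282%, near the median wells of the other 4 populations (0.144% to 0.246%), while the 81 wells of the other clusters lay between 2.07% and 27.7%. The monocyte markers took 0.512% to 1.37% of UMIs in the 12 wells and 0% to 0.119% in the 81 wells. The other well, I13, was mixed, with 7.13% granulocyte markers and 0.491% monocyte markers. It also had the most UMIs of all granulocyte wells (22425) and the highest FSC-A (227000), a measure of cell size. Its c-Kit fluorescence, 1511, was the highest of the granulocytes as well, and reached at most 204 in the 12 wells. No doublet caller was run, and what I13 held, including whether it was more than 1 cell, was not tested. I13 is counted in the monocyte-like cluster, so values given without that cluster also leave out I13. The clusters were built from transcripts, so the marker shares above describe the split and carry no test. Of the index values, which the clustering did not use, Gr1 and side scatter differed. Their Gr1 fluorescence ran from 736 to 3007 (median 1170), and that of the 81 wells from 871 to 49318 (median 20943), with 4 of the 81 at or below 3007. Side scatter (SSC-A), which follows granularity, had a median of 30016 in the 13 wells and 56640 in the 81. It reached 136000 in I13, and 80 of the 81 wells were at or below that value, but at most 37888 in the 12 wells. Mac-1 fluorescence did not separate them, with medians of 1157 and 1169. The plate rows held 2 (G), 2 (H), 3 (I) and 6 (J) of the 13 wells.

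**Figure D1:**
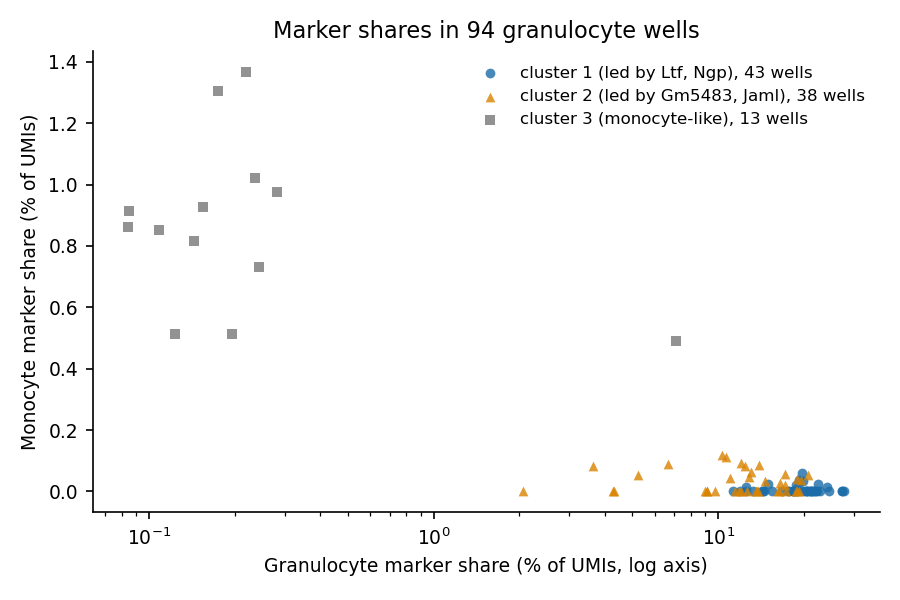
Share of UMIs on the 6 granulocyte markers (x axis, percent, log axis) and on the monocyte markers (y axis, percent) in each of the 94 granulocyte wells with at least 1000 UMIs; each point is 1 well and its shape gives its cluster. The 81 wells of clusters 1 and 2 sit at 2.07% or more on the x axis and at 0.119% or less on the y axis, 12 monocyte-like wells sit at the upper left, and well I13 lies alone at 7.13% and 0.491%.

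All 8 measured genes of the 9 on the monocyte list had UMIs in the sort, and most of those UMIs were in the 13 wells. Ccr2, the receptor that draws monocytes out of the marrow, had 272 of its 276 UMIs there, F13a1, the coagulation factor XIII A chain, 181 of 184, and Ms4a6c 95 of 96. Csf1r, the receptor for macrophage colony-stimulating factor, was less confined, with 21 UMIs in cluster 2 and 56 in the 13 wells. Over all 96 wells the list took 0.192% (0.179% to 0.206%) of UMIs, and without the 13 wells 0.0125%, the share seen in T lymphocytes (0.0125%). The list was higher than in the other populations with a median log2 ratio of 3.45 (6 of 6 genes that passed the count minimum), which became -0.36 without the 13 wells. List medians below that moved by over 1.5 times without the monocyte-like cluster are given also without it, as are some counts and single genes.

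Other cells that the gate could hold left few UMIs. The eosinophil list (4 of 6 genes measured) had 5 UMIs in all granulocyte wells, with Prg3 and Il5ra at 0. The macrophage list (6 of 7 measured) had 30, with C1qa and C1qc at 0, the natural killer cell list (4 of 6) 2, the plasma cell list (2 of 4) 1, the megakaryocyte list (5 of 5) 8 and the plasmacytoid dendritic cell list (3 of 4) 49, of which 40 were in the monocyte-like wells. The basophil and mast cell list (5 of 6) had 132, of which 126 were on Hdc, the enzyme that makes histamine, with Cpa3 at 0 and Mcpt8 and Prss34 at 1 each. Hdc was in 35 of the 43 cluster 1 wells, 20 of the 38 cluster 2 wells and none of the 13 monocyte-like wells. The erythroblast list, of globins, Alas2, Car2 and Slc4a1, took 1.60% of granulocyte UMIs, and 1.33% to 2.92% in the B, T and progenitor/stem populations. The B lymphocyte, T lymphocyte and progenitor/stem lists took 0.0213%, 0.0062% and 0.0159%.

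For the comparison of the whole transcriptome, counts were summed over the 96 wells and over the 278 wells of the other populations and scaled to the same total of UMIs on mouse genes (CPM). Of 6317 genes with at least 50 UMIs over all wells, 768 (12.2%) were at least 2-fold higher in granulocytes than in the other populations summed and 2801 (44.3%) at least 2-fold lower, so that 21.5% of the genes past 2-fold were higher. That split depends on the scaling. The share of higher genes was 35.6% with scran size factors, 37.2% with TMM factors and 51.2% when the median of all genes was set to 0. It was 25.1% without S100a8 and S100a9 and 22.7% without Gm42418, Mir6240 and the mitochondrial ribosomal RNA genes. With the mean CPM of wells in place of summed counts, the share was 20.4%, near that of the main setting. With each well thinned to 1000 UMIs it was 39.2%. Thinning also removes counts, so that value cannot show the effect of scaling alone. The part of the lost counts in it was not tested. The median log2 ratio of the 6317 genes was -0.81, and it is the level against which the medians of gene lists are read below. Granulocyte UMIs count towards the minimum of 50. A listed gene almost absent elsewhere therefore passes only through its granulocyte UMIs and is then higher by construction, while listed genes with few UMIs anywhere drop out. Counts of higher genes among those that passed describe the lists and carry no test. It moved to -0.45 with scran and -0.31 with TMM factors, and to -1.11 without the monocyte-like cluster. Against B lymphocytes 13% of the 6317 genes were at least 2-fold higher and 35.6% lower, against T lymphocytes 12.3% and 41.5%, against erythroblasts 30.2% and 29.8%, and against progenitor/stem cells 12.3% and 44%. In all 4 comparisons together, 367 genes (5.81%) were at least 2-fold higher and 759 (12%) at least 2-fold lower. Without the monocyte-like cluster the shares were 11.6% higher and 52.5% lower than in the other populations summed, and 5.94% higher than in each.

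Of the genes with the highest ratios, Slpi, an inhibitor of leukocyte proteases, had 124 UMIs in granulocytes and 3 in the other 278 wells (log2 ratio 7.56, interval 5.98 to 9.85). Plbd1, a phospholipase B-like granule protein, had 320 against 8 UMIs (7.51, 6.51 to 8.73), and was in 80 of the 96 wells. Itgb2l, an integrin beta subunit of neutrophils, had 189 against 6 (7.16, 6.02 to 8.63), and Cd177, a surface glycoprotein of neutrophils, had 253 against 11 (6.71, 5.85 to 7.73). Cebpe, the transcription factor that drives specific granule formation, had 61 UMIs against 1 (8.12, 5.59 to 13.44). With sums under 3 UMIs set to 3 UMIs for the ranking, the 20 highest genes also held Adam8, Tgfbi, Pilra, Lilra6, I830127L07Rik, Ngp, Camp, Il1rn, Lyz1, Pirb, Clec5a, BC049730, Ltf, S100a8 and Ceacam10. Each of these 20 was at least 2-fold higher than in every other population alone. Lilra6 and Pirb belong to a family of near-identical receptors, as does Ceacam10, and reads of such copies can be split between them.

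Of the 15 genes with the lowest ratios, Cd34, a sialomucin of stem and progenitor cells, had 4 UMIs in granulocytes and 434 in progenitor/stem cells. Hemgn, a nuclear protein of erythroid cells, had 12 against 1086 in erythroblasts, and Blvrb, biliverdin reductase B, 12 against 896. Bcl11b, a transcription factor of T cells, had 1 UMI against 204 in T lymphocytes. Among the rest were Tdpx-ps1, Ermap, Gypc, Hba-ps4, Gm19590, Kcnn4, Ppp1r15a, Mdn1, Slc43a1 and Myh10, each with 2 to 37 UMIs in granulocytes. Of the 15 genes, 14 kept a negative ratio when each other population was left out in turn, and Bcl11b did not (log2 ratio 0.28 without T lymphocytes).

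By counts, the granulocyte total was led by few genes. Gm42418 had 66066 UMIs, but its position is shared with ribosomal RNA transcribed from the other strand, and its log2 ratio was 0.34. After it came S100a9 with 21278, S100a8 with 17990, Ngp with 6325, Lyz2 with 5262, Actb with 5100, Mir6240 with 4206, Retnlg with 4203, Tmsb4x with 4020 and Camp with 3691. Leaving out Gm42418, Mir6240 and the mitochondrial ribosomal RNA genes, 10 genes held 22.5% of the UMIs and 299 genes held 50% of them. The corresponding gene numbers were 195 in erythroblasts, 786 in B lymphocytes, 860 in T lymphocytes and 1014 in progenitor/stem cells.

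S100a9 (ENSMUSG00000056071, chromosome 3, 90692632 to 90695721, reverse strand, GENCODE M21 on GRCm38) was at 52733 CPM (52027 to 53446) in granulocytes, with 0 in the lowest well, 63017 CPM in the median well and 108607 CPM in the highest. The highest well of any other population, at 37961 CPM, lay below that median. It was B lymphocyte well A8, where granulocyte markers made up 10.8% of UMIs and Gr1 fluorescence was in the granulocyte range. S100a8 (ENSMUSG00000056054, chromosome 3, 90668978 to 90670035, forward strand) was at 44584 CPM (43935 to 45241), with 0, 52138 and 87950 CPM in the lowest, median and highest wells. Their log2 ratios were 6.21 (6.13 to 6.29) and 6.29 (6.20 to 6.38). In the S100 family of small calcium-binding proteins, 4 of the 6 genes that passed the count minimum were at least 2-fold higher, the other 2 of these 4 being S100a6 (4.71) and S100a11 (3.82). S100a10 was at 0.03, and at -2.33 without the monocyte-like cluster.

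Specific granule genes were the list with the highest median. All 9 genes that passed the minimum, of 12 listed and measured, were at least 2-fold higher than in the other populations summed and than in each of them, with a median log2 ratio of 6.30, and of 6.66 without the monocyte-like cluster. Ngp, neutrophilic granule protein (ENSMUSG00000032484, chromosome 9, 110419747 to 110423012), reached 15675 CPM (15291 to 16066) and a log2 ratio of 6.57. Its wells spread from 0 through a median of 3992 to 59072 CPM. Camp, the cathelicidin (ENSMUSG00000038357, chromosome 9, 109847379 to 109849617), was at 9147 CPM, with 0, 838 and 33612 CPM in the lowest, median and highest wells. Ltf, lactoferrin (ENSMUSG00000032496, chromosome 9, 111019271 to 111042767), was at 7051 CPM with 0, 568 and 26020 CPM. For all 3 genes the value over the summed wells lay far above the median well, since a part of the wells carried most of the UMIs. Lcn2, the siderophore-binding lipocalin, was at 4.50, Chil3, a chitinase-like protein, at 4.81, Pglyrp1, a peptidoglycan recognition protein, at 4.89, and Hp, haptoglobin, at 6.02. The 3 genes under the minimum were Olfm4, Orm1 and Cnn2, with 3, 16 and 9 UMIs.

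Late neutrophil and gelatinase granule genes were also higher as a list, with 12 of 12 genes that passed (16 listed) at least 2-fold higher, 11 of them than in each other population, and a median of 5.16. Mmp9, gelatinase B, had 745 UMIs against 46 in the other populations, and Mmp8, neutrophil collagenase, 1417 against 199 (5.02, 4.80 to 5.24). Retnlg, a resistin-like secreted protein, had 4203 against 795 (4.59, 4.48 to 4.70), with 0, 10555 and 44488 CPM in the lowest, median and highest granulocyte wells. B lymphocyte wells had a median late neutrophil share of 0.0608%, and their highest value, 4.75%, was that of well A8. Wfdc17 had the lowest ratio of the list, 1.32, and 0.61 without the monocyte-like cluster.

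Primary granule genes were at low counts. Over 7 measured genes of 8 listed there were 329 UMIs in 39 wells, and 256 of them were in well I13, where they made up 1.14% of its UMIs. Of 4 genes that passed the minimum, Elane (neutrophil elastase, 4.25) and Ctsc (dipeptidyl peptidase 1, which activates the granule proteases, 1.42) were at least 2-fold higher, while Prtn3 (proteinase 3) was at 0.28 and Mpo (myeloperoxidase) at 0.15. Without the monocyte-like cluster 1 of the 4, Elane, was at least 2-fold higher and the other 3 at least 2-fold lower, and the median went from 0.85 to -2.09. In the 81 wells of clusters 1 and 2 the list had 33 UMIs, or 0.0106%, against 0.0642% in the progenitor/stem cells.

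For the phagocyte NADPH oxidase, 6 of 7 genes were at least 2-fold higher (median 3.40). Cybb, the membrane subunit gp91phox, was at 5.16 (4.91 to 5.42), Cyba, its partner p22phox, at 3.32, the cytosolic subunits Ncf1 and Ncf4 at 4.32 and 4.06, and the GTPase Rac2 at 2.04. Rap1a, with 17 UMIs, was at -0.18. G6pdx (glucose-6-phosphate dehydrogenase, 2.97) and Pgd (4.16), which make NADPH in the pentose phosphate pathway, were higher too, as were Taldo1 (1.85) and Tkt (1.59) of its non-oxidative branch. In the list of glycolysis and pentose phosphate genes 11 of 14 were at least 2-fold higher. The hexokinase Hk3 (3.82) was among them, while the hexokinase Hk1 (7 UMIs against 111) and the liver-type phosphofructokinase Pfkl (-2.02) were at least 2-fold lower.

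Receptors for chemoattractants and microbial patterns were higher in 14 of 14 genes that passed, of 20 listed, with a median of 5.47. Cxcr2, the receptor for neutrophil chemokines, had 288 UMIs against 28 (5.55, 4.99 to 6.16). The formyl peptide receptors Fpr1 and Fpr2 were at 5.83 and 5.34, Ltb4r1, the leukotriene B4 receptor, at 5.63, C5ar1, the receptor for complement C5a, at 5.94, and Ccr1 at 6.24. Cxcr4, which retains cells in the marrow, was lowest of the 14, at 1.09. Ccr2 was the gene of the list that rested on the monocyte-like wells, with 5.90 over all wells and 0.17 without them. Tlr4 and Cd14 had 1 and 2 UMIs and did not pass the minimum.

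Adhesion molecules and Fc receptors were at least 2-fold higher in 16 of 18 genes (median 2.78), and in 9 of 18 against each other population. This list contains Itgam (4.33, 4.01 to 4.65), Ly6c1 and Ly6c2 (5.22), which the sorting antibodies selected, and Itgb2 (2.85), the beta chain of Mac-1. Ly6g had 10 UMIs in granulocytes, all in cluster 1, and 0 in the other populations. Ly6c1 and Ly6c2 are near-identical, so that their counts may be split. Among genes the gate did not use, Fcgr3, a low-affinity IgG receptor, was at 6.04, Tyrobp and Fcer1g, signalling adaptors of such receptors, at 4.93 and 4.19. The integrin genes Itga4 (-1.03) and Itgb1 (-1.04) were the 2 at least 2-fold lower. Of the myeloid kinases and adaptors 8 of 16 were at least 2-fold higher, among them the Src family kinase Fgr (4.68), and 4 of 16 against each other population.

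In the list of cytokine receptors, 8 of 14 genes were at least 2-fold higher, with Csf3r, the receptor for granulocyte colony-stimulating factor, at 3.58 (3.28 to 3.88) and Csf2ra and Csf2rb, subunits of the GM-CSF receptor, at 3.25 and 2.85. Il1r2, the decoy receptor for interleukin 1, had 43 UMIs against 1, below the count minimum. Of 6 cytokine and chemokine genes that passed, 4 were at least 2-fold higher, namely Il1rn (57 UMIs against 2), Il1b (46 against 4), Ccl6 (5.30) and Ccl9 (1.52, and -1.59 without the monocyte-like cluster), and Tgfb1 was lower (-1.25).

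Transcription factors of the myeloid lineage went both ways, with 9 of 15 at least 2-fold higher and 3 at least 2-fold lower (median 1.86, and 0.48 without the monocyte-like cluster). Beside Cebpe, the C/EBP members Cebpd (5.27) and Cebpb (3.92) were higher, as were Spi1, which encodes PU.1 (2.79), Mxd1, an antagonist of Myc (3.66), and Rara, a retinoic acid receptor (3.13). Myb (-3.59) and Myc (-2.98), factors of dividing progenitors, were lower. Irf8 (1.63) and Irf5 (2.36) had 58 of 63 and 28 of 35 UMIs in the monocyte-like wells, and Irf8 was at -1.66 without them.

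Other lists of secreted and structural proteins were higher. The lysosome list was at least 2-fold higher in 13 of 14 genes (median 1.87), and in 9 without the monocyte-like cluster, in which Lamp1, Psap and Ctsb had most of their UMIs. Over all wells, 7 of the 14 were higher than in each other population. Lyz2, lysozyme, was at 13041 CPM (5.51, 5.38 to 5.64), and the well with the highest value (32099 CPM) was monocyte-like. Protease inhibitors were at least 2-fold higher in 7 of 7 genes (4 of 7 without the monocyte-like cluster), among them Wfdc21 (5.57) and Stfa2l1, a stefin with near-identical copies (4.46). Of 25 actin cytoskeleton genes 22 were at least 2-fold higher (median 1.85), with gelsolin (Gsn) at 3.45, thymosin beta 4 (Tmsb4x) at 3.22, L-plastin (Lcp1) at 2.47 and Coro1a at 1.98. Against each other population 10 of the 25 were higher, and the list median ran from 0.91 over T lymphocytes to 4.09 over erythroblasts. Tmsb10 was at 0.38 and, without the monocyte-like cluster, at -1.73. Anxa1 was at 5.26, and 3 of 5 annexins were at least 2-fold higher (2 without the monocyte-like cluster, where the median went from 1.08 to 0.43). For lipid mediators and droplets the count was 6 of 7, with Alox5ap, which serves 5-lipoxygenase in leukotriene synthesis, at 3.10 and Lta4h, which makes leukotriene B4, at 2.09.

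**Figure D2:**
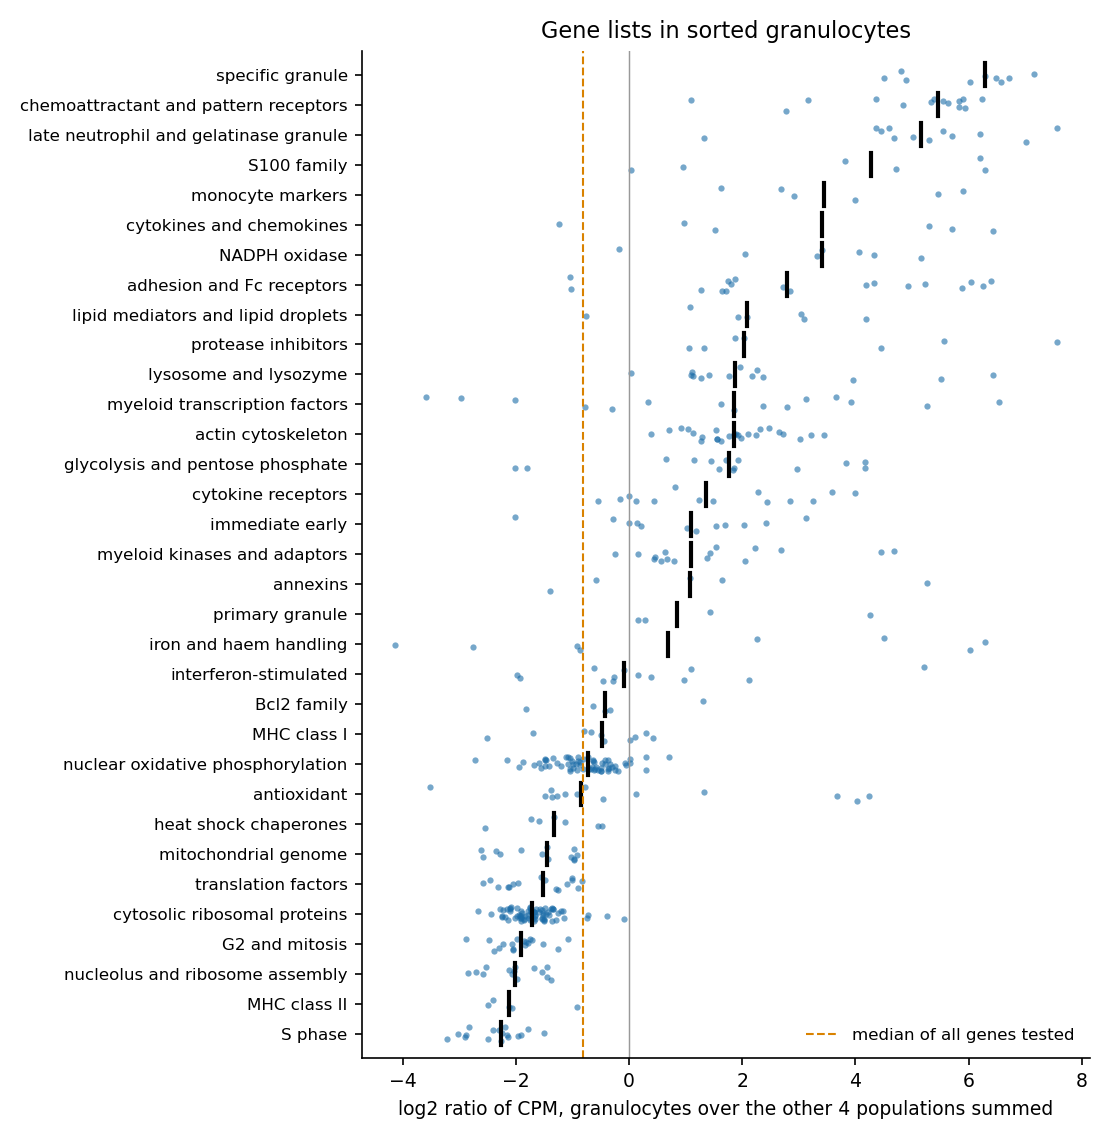
Log2 ratio of CPM, granulocytes over the other 4 populations summed (x axis), for the genes past 50 UMIs of each list with at least 4 of them, the markers of the 5 sorted populations left out (y axis); each point is a gene, the black bar is the median of the list, and the dashed line is the median of all 6317 genes (-0.81). Specific granule genes lie between 4.50 and 7.16, and the S phase genes between -3.21 and -1.50.

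Genes of growth and division lay at the other end. All 17 S phase genes that passed the minimum were at least 2-fold lower (median -2.27), with the helicase subunits Mcm4 (-3.21) and Mcm2 (-3.02) lowest, and all 18 G2 and mitosis genes were (median -1.91). Without the monocyte-like cluster the medians were -3.24 and -2.54. Over single populations the S phase median ran from -0.75 over T lymphocytes, near the -0.69 of all genes, to -3.11 over erythroblasts. The G2 and mitosis value rested on the erythroblasts, where these genes took 1.49% of UMIs against 0.151% in granulocytes, and the median became 0.095 without that population. The median granulocyte well had 0.0706% of its UMIs on the G2 and mitosis list, and the highest 1.16%. In nucleolus and ribosome assembly 14 of 14 genes were at least 2-fold lower than in the other populations summed (median -2.02). The median of this list was -2.80 over progenitor/stem cells but -0.14 over erythroblasts, where that of all genes was -0.01. Among the translation factors 14 of 16 were lower (median -1.52, and -2.20 with 16 of 16 without the monocyte-like cluster). Cytosolic ribosomal proteins, widely expressed components of the translation apparatus, were lower in 70 of 74 (median -1.71, and -2.76 without the monocyte-like cluster). The ribosomal proteins took 1.64% of granulocyte UMIs, and 3.28% in B lymphocytes, 3.84% in erythroblasts, 4.45% in T lymphocytes and 6.14% in progenitor/stem cells. The value was 0.870% in the 81 wells of clusters 1 and 2 (range 0.389% to 1.70%) and 4.24% in the monocyte-like cluster (range 2.41% to 8.00%), so these wells did not overlap. As the clusters were built from transcripts, this gap describes the split and carries no test.

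Of the mitochondrial genome 9 of 13 genes were at least 2-fold lower (median -1.46), and 11 without the monocyte-like cluster. For the 65 nuclear genes of oxidative phosphorylation the median of -0.73 was near that of all genes, with 22 of 65 at least 2-fold lower (40 without the monocyte-like cluster) and 0 higher. MHC class II genes were lower in 4 of 5 (median -2.11), and Cd74 had 11 UMIs in granulocytes and 247 in B lymphocytes. The class II median was -5.13 over B lymphocytes, and -0.72 over T lymphocytes, -0.47 over erythroblasts and -0.65 over progenitor/stem cells. Heat shock chaperones were lower in 5 of 7 (median -1.33), with list medians from 0.02 over erythroblasts to -1.69 over progenitor/stem cells. Antioxidant genes had a median of -0.85, near the -0.81 of all genes, with 4 of 14 higher and 6 lower, and the lower share was near the 44.3% of all genes. Glutathione reductase (Gsr, 4.25), Mgst1 (4.02) and Prdx5 (3.68) were on the high side, and Prdx2, abundant in red cells, was at -3.52. In the iron and haem list 4 of 8 were higher, of which Ltf, Lcn2 and Hp are also specific granule genes, and the fourth was the iron exporter Slc40a1 (2.26), while the transferrin receptor Tfrc was at -2.77. Immediate early genes were higher in 7 of 12, with Klf6 at 3.13 and Egr1 at 0 UMIs. Only 1 of the 12 was higher than in each other population. The list median was 0.06 over B lymphocytes, 0.46 over T lymphocytes, 1.75 over progenitor/stem cells and 2.70 over erythroblasts. In the Bcl2 family Mcl1, which sustains neutrophils, was at 1.30 and Bcl2 at -1.82, and the median of the list went from -0.42 to -1.095 without the monocyte-like cluster. The medians of the interferon-stimulated (-0.08), MHC class I (-0.47) and Bcl2 family (-0.42) lists changed sign with the scaling, although Ifitm6 (5.21) and Ifitm3 (2.11) of the first list were higher.

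The wells of the 2 other clusters differed in granule genes. Cluster 1, of 43 wells, was led by Ltf, Ngp, Camp, Itgb2l, Abca13 and Lcn2, and cluster 2, of 38 wells, by Gm5483, Jaml, Clec4d, Fgl2, Pla2g7, Stfa2l1 and Ccl6. The clusters were built from these transcripts, so their differences in transcripts describe the split and carry no test. Specific granule genes took 8.41% (8.29% to 8.53%) of UMIs in cluster 1, with wells from 2.75% to 16.4%, and 0.951% (0.893% to 1.01%) in cluster 2, with wells from 0.304% to 2.11%, so that the wells did not overlap. Late neutrophil genes took 1.75% of the median well in cluster 1 (wells 0.0939% to 4.94%) and 3.84% of that in cluster 2 (wells 1.06% to 6.16%), and these wells overlapped. Both lists were measured in wells of unequal depth, with a median of 4509 UMIs in cluster 1 and 2493 in cluster 2, while the median ERCC spike-in counts were 440 and 431.

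Ltf led cluster 1 in its ratio over the other wells, with a median well of 14322 CPM (range 316 to 26020) in cluster 1 and of 0 (range 0 to 1404) in cluster 2. Ngp had medians of 24581 CPM (6653 to 59072) and 848 CPM (0 to 9829), and Camp of 15182 CPM (760 to 33612) and 226 CPM (0 to 1663). Not all granule genes followed this order. Mmp9 was almost level, with medians of 2462 CPM in cluster 1 and 2421 CPM in cluster 2, and Retnlg was higher in cluster 2, at 22483 against 5228 CPM. S100a8 was high in both, with medians of 61832 and 46648 CPM, and had a median of 366 CPM in the monocyte-like wells.

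Cybb, the oxidase subunit, had a median of 3856 CPM in cluster 1 and 433 CPM in cluster 2, and Anxa1, a protein that limits inflammation, of 3056 and 989.9 CPM. Csf3r went the other way, with 249.7 CPM in cluster 1 and 2392 CPM in cluster 2, as did Cxcr2 (409.5 and 1619 CPM). Ccl6, a chemokine, had UMIs in 11 of the 43 wells of cluster 1 and in all 38 wells of cluster 2. Il1b, the precursor of interleukin 1 beta, had UMIs in 1 well of cluster 1 and 15 wells of cluster 2. Cebpe, which acts at the stage of specific granule synthesis, had UMIs in 26 wells of cluster 1 and 3 of cluster 2. Primary granule genes were near 0 in both clusters (0.00916% and 0.0134%), ribosomal protein shares were alike (0.861%, 0.822% to 0.902%, and 0.888%, 0.831% to 0.946%), and the S phase share was 0.0357% and 0.0355%. The G2 and mitosis share was 0.116% and 0.0874%, and its highest well, at 0.775%, was in cluster 1.

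**Figure D3:**
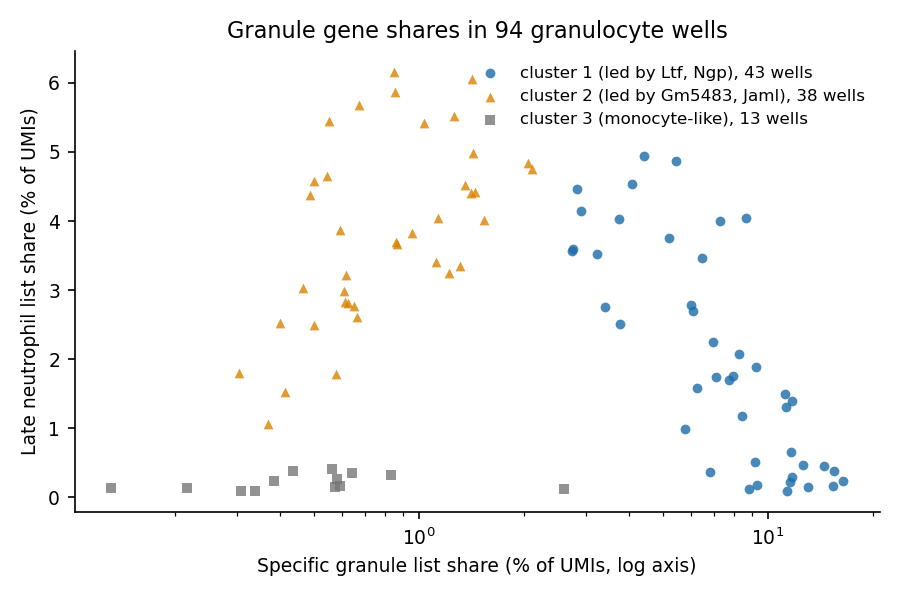
Share of UMIs on the specific granule list (x axis, percent, log axis) and on the late neutrophil and gelatinase granule list (y axis, percent) in 94 granulocyte wells; each point is 1 well and its shape gives its cluster. Cluster 1 lies at 2.75% or more on the x axis and cluster 2 at 2.11% or less, and within cluster 1 the late neutrophil share is lower in wells with a higher specific granule share.

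In each of clusters 1 and 2, 12 relations between measures of the wells were computed. Within cluster 1 the specific granule and late neutrophil shares were inversely related over 43 wells (Pearson r = -0.78, Spearman rho = -0.79, and r = -0.79 without the 2 wells farthest from the median). Within cluster 2 they were positively related over 38 wells (r = 0.49, rho = 0.55, and r = 0.43 without 2 wells), more weakly with each well thinned to 1000 UMIs (r = 0.28, rho = 0.39). Both shares are parts of the same total in each well, the wells come from 1 mouse, and the clustering used many of these genes, so the coefficients are descriptions and no p-value was computed.

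The index values of the same wells allowed protein and transcript to be set side by side. In cluster 1, Gr1 fluorescence was related positively to the late neutrophil share (r = 0.69, rho = 0.76, and 0.72 without 2 wells) and negatively to the specific granule share (r = -0.60, rho = -0.63, and -0.60 without 2 wells). In cluster 2 the coefficients were -0.15 and -0.03. Side scatter in cluster 1 was related to the late neutrophil share in the same direction as Gr1 (r = 0.47, rho = 0.51, and 0.57 without 2 wells), and Mac-1 fluorescence in the opposite direction (r = -0.61, rho = -0.70, and -0.63 without 2 wells). Gr1 had a median of 16440 (range 871 to 46307) in cluster 1 and of 23337.5 (range 12301 to 49318) in cluster 2, and SSC-A had medians of 47616 and 64288. FSC-A had medians of 99520 and 90720, CD44 fluorescence of 18208 and 20975, and Mac-1 of 1198 and 1104, with ranges that overlapped widely. Depth moved with these measures as well: the UMI total of a cluster 1 well was related to its late neutrophil share with r = -0.48. With every well thinned to 1000 UMIs, the original UMI total was still related to that share, with r = -0.485. Thinning therefore cannot show what part depth had in the relations, and that part was not tested. After thinning, the relation of Gr1 to the late neutrophil share had r = 0.70 and that of both shares r = -0.75 in cluster 1.

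**Figure D4:**
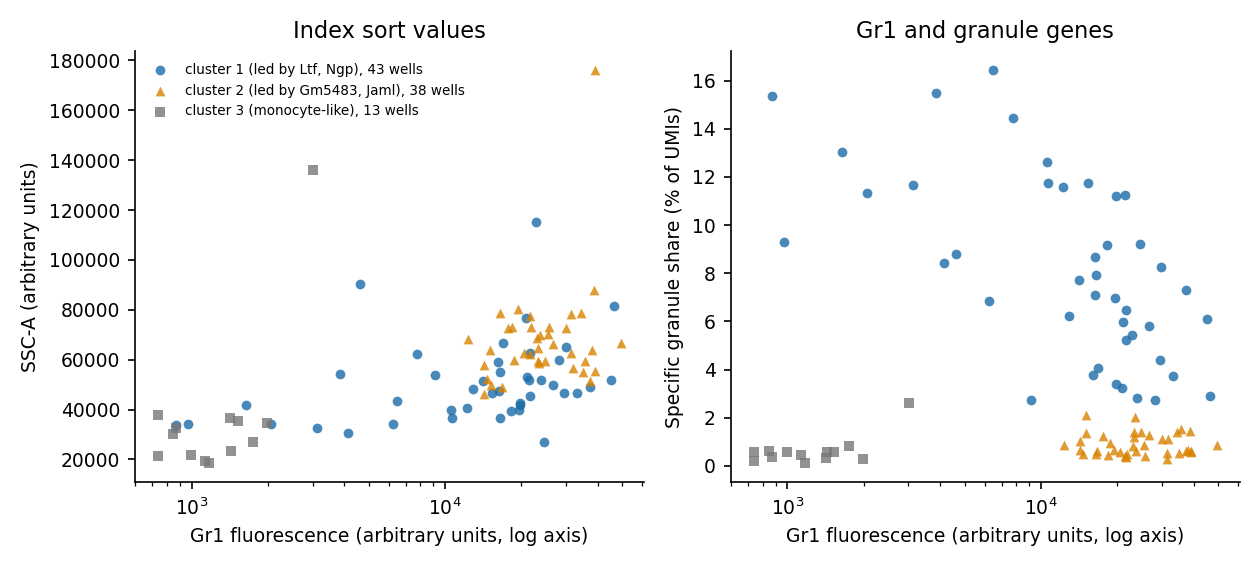
Left, side scatter (SSC-A, y axis) against Gr1 fluorescence (x axis, log axis), both in arbitrary units; right, the specific granule share (y axis, percent of UMIs) against Gr1 fluorescence, in 94 granulocyte wells with 1 point per well and shapes by cluster. The monocyte-like wells lie at a Gr1 fluorescence of 3007 or less, cluster 2 lies at 12301 or more, and cluster 1 spans 871 to 46307.

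The spread between wells was also measured gene by gene at equal depth, as the Fano factor (variance over mean), which is 1 for Poisson counts. Of 627 genes with a mean of at least 0.2 UMIs in wells thinned to 1000 UMIs, 43 (6.86%) had a Fano factor of at least 2, against 31 of 569 (5.45%) without the monocyte-like cluster. The shares in the other populations were 7.21% in B lymphocytes, 3.10% in T lymphocytes, 2.77% in erythroblasts and 1.99% in progenitor/stem cells, with median Fano factors of 1.13 in granulocytes and 1.03 to 1.08 elsewhere. After Gm42418 (39.2) the highest granulocyte values were those of Ngp (19.7), S100a9 (15.7), Camp (15.0), S100a8 (14.9), Retnlg (12.6) and Ltf (10.5). Without the 13 monocyte-like wells S100a9 was at 7.31 and S100a8 at 7.91, whereas Ngp (18.2), Camp (14.1) and Ltf (9.70) kept values near those over all wells. Fn1, Ccr2 and Ahnak went to 1.00, 1.00 and 0.96. Their mean counts without the monocyte-like wells were 0.012, 0.012 and 0.049, under the minimum of 0.2, too low to measure spread. Stfa2l1 had a Fano factor of 8.36, with UMIs in 14 of the 38 wells of cluster 2 and up to 12218 CPM in 1 well. Hist1h2ap, a replication-dependent histone gene, had 4.55, and 112 of its 270 UMIs were in well I13. The mitochondrial ribosomal RNA genes mt-Rnr2 (9.25) and mt-Rnr1 (5.03) and Lars2 (4.90) were also among the 15 highest.

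**Figure D5:**
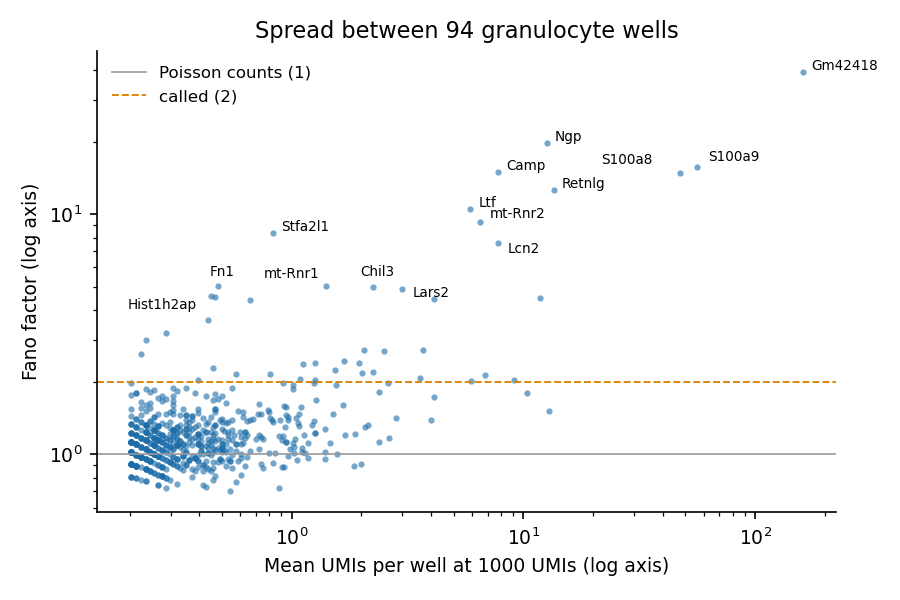
Fano factor (y axis, log axis) against the mean count per well at 1000 UMIs (x axis, log axis) for 627 genes in 94 granulocyte wells; each point is a gene, the solid line is the Poisson value of 1 and the dashed line marks 2. The 15 highest genes are named, with Gm42418 at 39.2, Ngp at 19.7 and S100a9 at 15.7.

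The plate rows given in the labels were compared for the main lists. The granulocyte marker share was 13.5% in row G, 14.8% in row H, 14.8% in row I and 11.6% in row J, the row with 6 of the 13 monocyte-like wells. The specific granule share ran from 4.37% (row H) to 5.28% (row I), and the late neutrophil share from 1.53% (row J) to 2.52% (row H). Every row held wells of all 3 clusters, with 9 to 12 wells of cluster 1 and 7 to 13 wells of cluster 2 in each.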

How the data were processed

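Index-sorted cells of 5 populations from 1 mouse were processed with CEL-seq2. The table that the authors deposited holds unnormalized UMI counts, a row for each gene and a column for each well, obtained with scPipe (alignment, assignment to exons, demultiplexing and collapsing of UMIs). For the aligner's version, genome build, annotation and strand setting: not given in the sources used here. Contradictory descriptions of read 1 stand in the labels. Columns were matched to cells by well name; 9 columns that match no labelled cell were not used. The 374 labelled wells carry 374 distinct barcodes. Symbols and coordinates were taken from GENCODE M21 (GRCm38; the authors' build may be another), with 19755 of 19829 mouse genes named and 1107 UMIs on the rest. The 74 ERCC rows were left out of library sizes.

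Counts were summed per population and scaled to CPM. With 1 sample per group there is no test: intervals are exact Poisson (sums), exact binomial (shares) or exact conditional binomial (ratios), at 95%. Intervals of ratios and shares cover counting error only. Genes needed 50 UMIs over all wells, and a gene was called at 2-fold. Sums under 3 UMIs were set to 3 for ranks, medians, calls and ratios with a population left out. Other ratios of single genes are without that floor. For wells with at least 1000 UMIs, counts per 10000 (log, pseudocount 1) of 200 variable genes were reduced to 10 principal components and clustered by Ward's method. The number of clusters from 2 to 6 with the highest silhouette was taken. No doublet caller was run. Fano factors used wells thinned to 1000 UMIs with a fixed seed.

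Named genes were the 20 highest and 15 lowest ratios among genes detected in 25% or more of the higher side's wells, the 10 genes with most UMIs, the 15 highest Fano factors, the genes of the gate antigens, and 45 lists of markers and pathways. Genes added to the text as cluster leaders came from the clustering. The members, lists and rules were chosen with earlier results of these data known. Listed genes without a row are not analysed here. Some genes that the rules select are not reported here. Alternatives were scran 1.30.0 size factors, TMM factors of edgeR 4.0.16, other filters, wells and weights. Python 3.11.15, numpy 2.4.6, pandas 2.3.3, scipy 1.17.1, scikit-learn 1.9.0, matplotlib 3.10.9 and R 4.3.3 were used, and the steps were tested on simulated data.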

Additional observations from a re-analysis of the deposited data

How the results depend on the processing

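No paired analysis was possible because the cells of each population are numbered only by well and come from 1 mouse. The 768 genes at least 2-fold higher became 1160 with scran size factors, 498 with at least 100 UMIs, 1455 with ratios centred on their median and 8798 with no filter, where genes with almost no UMIs sit at the floor and the deeper population has the lower floor. The 2801 lower genes became 1681 with at least 100 UMIs, 1481 with wells thinned to 1000 UMIs and 1386 with centring. The 367 genes higher than in each population became 675 with scran, 633 with TMM and 240 with at least 100 UMIs. The granulocyte marker share of 13.6% was 14.0% as a mean over wells, 16.6% without Gm42418, Mir6240 and mitochondrial ribosomal RNA, 14.0% without wells nearest another population, 17.1% without the monocyte-like cluster, and 13.3%, 13.1% and 14.4% without rows H, I and J. Over the same settings the monocyte share of 0.192% was 0.135%, 0.235%, 0.172% and 0.0125%, and it was 0.214%, 0.215% and 0.146% without rows G, H and J. The 43 genes with a Fano factor of at least 2 became 22 at 500 UMIs and 111 at 2000 UMIs. Leaving out the population that carries a list turned the medians of the B lymphocyte (0.21), T lymphocyte (1.61), erythroblast (0.0039), progenitor/stem (0.40) and G2 and mitosis lists (0.095, without erythroblasts), and the ratio of Bcl11b (0.28, without T lymphocytes); leaving out the monocyte-like cluster turned the monocyte list (-0.36). Among the values of single lists, genes and relations, 592 stayed within their spread (the SD over plate rows for lists, the counting interval for genes), 284 moved beyond it, and the 7 above, past 2-fold in the report, changed sign. Smaller medians changed sign as well under some settings, namely those of the interferon-stimulated (up to 0.42), MHC class I (up to 0.47), Bcl2 family (up to 0.082), plasmacytoid dendritic cell (up to 0.66) and primary granule lists (down to -2.09), as did some weak relations between wells. The centring and the settings without that cluster or without well A8 were chosen after seeing the data. The causes of these moves were not tested. At a median of 3880 UMIs per well, genes of low counts were not detectable in most single wells.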
